A study of Mus musculus with 3 samples.

Results

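Estradiol synthesis in granulosa cells (GCs) was followed through 5 genes of a table of 24958 genes, *Cyp19a1*, *Hsd17b1*, *Nr5a2*, *Nr5a1* and *Nr0b1*. They were chosen by name for their roles in the pathway, with earlier results of these data known, and no measured value enters the rule. The data were scRNA-seq libraries (10x Genomics) of whole mouse ovary, 1 library each at 0, 1 and 6 h after an injection of hCG, a hormone that acts on the luteinizing hormone receptor. The study describes ovaries of 21-day-old Kunming mice taken 48 h after PMSG, a gonadotropin that drives follicle growth. For the libraries at 1 and 6 h the sources do not say if PMSG preceded hCG, and for none of them how many animals were pooled. No transgene or knockout is named in the labels of these ovaries.

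The deposited cells carried barcodes ending in 1, 2 or 3. The library names also end in 1, 2 and 3, but no source ties an ending to a library, so the cells are called barcode sets 1, 2 and 3 and no time point is given to any of them. With 1 library in a set there was no replicate, and no test could be made. The intervals given with the values are 95% intervals that cover counting error only.

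Estradiol is made in the follicle by a division of labour. Theca cells turn cholesterol into androgen, and GCs take up the androgen and convert it with aromatase, the product of *Cyp19a1*. *Hsd17b1* encodes the 17β-hydroxysteroid dehydrogenase that reduces estrone to the more potent estradiol. *Nr5a2* (LRH-1) and *Nr5a1* (SF-1) encode related orphan nuclear receptors that bind the same DNA element and activate genes of steroid synthesis, and *Nr0b1* (DAX-1) encodes an unusual nuclear receptor without the usual DNA-binding domain that represses transcription by NR5A receptors.

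The 5 genes lie apart in the genome (GRCm38, GENCODE M21). *Cyp19a1* (ENSMUSG00000032274.9) lies on chromosome 9 from 54165937 to 54268110 on the minus strand, and *Hsd17b1* (ENSMUSG00000019301.5) on chromosome 11 from 101078411 to 101080527 on the plus strand. *Nr5a2* (ENSMUSG00000026398.14) lies on chromosome 1 from 136842571 to 136960448 on the minus strand. *Nr5a1* (ENSMUSG00000026751.14) lies on chromosome 2 from 38692656 to 38714542 on the minus strand, and *Nr0b1* (ENSMUSG00000025056.4) on chromosome X from 86191764 to 86195947 on the plus strand. Only *Nr5a1* overlaps another annotated gene, the antisense *Nr5a1os* on the opposite strand.

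RefSeq promoter windows of GRCm38.p6 were found for 3 of the 5 genes, *Cyp19a1*, *Nr5a2* and *Nr0b1*. The 250 bases before the annotated start were searched on both strands for AGGTCA, the core that many nuclear receptors recognise, and for AAGGTCA, the longer form read by NR5A receptors, which contains the core. The windows below are those of the 3 genes that hold the core, shown because *Nr5a2* and *Nr5a1* encode receptors that read the longer form. Capitals mark the core or its reverse complement.
Cyp19a1, chr9:54268165-54268414, minus strand: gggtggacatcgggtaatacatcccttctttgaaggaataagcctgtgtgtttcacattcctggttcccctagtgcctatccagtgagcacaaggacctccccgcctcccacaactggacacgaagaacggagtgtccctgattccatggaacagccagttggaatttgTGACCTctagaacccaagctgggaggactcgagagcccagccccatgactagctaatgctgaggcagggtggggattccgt
Nr5a2, chr1:136960449-136960698, minus strand: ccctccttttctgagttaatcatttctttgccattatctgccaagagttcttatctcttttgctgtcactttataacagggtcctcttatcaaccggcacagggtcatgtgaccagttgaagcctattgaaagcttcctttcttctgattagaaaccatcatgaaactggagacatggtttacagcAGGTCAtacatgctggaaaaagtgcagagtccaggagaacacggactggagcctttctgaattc
Nr0b1, chrX:86191525-86191774, plus strand: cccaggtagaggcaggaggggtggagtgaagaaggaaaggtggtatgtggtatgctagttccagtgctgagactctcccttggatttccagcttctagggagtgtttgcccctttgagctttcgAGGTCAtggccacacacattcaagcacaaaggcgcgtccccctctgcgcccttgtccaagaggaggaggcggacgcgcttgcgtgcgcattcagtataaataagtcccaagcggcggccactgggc
The match began 81 bases before the start of *Cyp19a1*, 64 before that of *Nr5a2* and 126 before that of *Nr0b1*. Of all 32851 promoter windows, 14.0% held the core and 4.08% the longer form, which was in none of the 6 windows of these genes. The other windows, 2 of *Cyp19a1* and 1 of *Nr5a2*, held neither. *Cyp19a1* has several annotated starts, and which of them was used in these cells cannot be read from the table.

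The table held 31776 cells, 10384 in set 1, 9917 in set 2 and 11475 in set 3, with medians of 6093, 6352 and 6524 unique molecular identifiers (UMIs) per cell and at least 500 in each. Barcode sequences shared between sets numbered 27, 46 and 39 for the 3 pairs. Each cell was given a class from the levels of marker genes that exclude the 5 genes. GCs numbered 14059, or 44.2% of the cells, with 4531, 4705 and 4823 in sets 1, 2 and 3. In each set 7 of 8 GC markers were highest in the GC gate, while for theca 3, 3 and 4 of 5 markers were highest in their own gate. Scrublet marked 0.135% of the cells as doublets, a share so low that its calls were not used, and no cell was removed on them.

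*Cyp19a1* and *Hsd17b1*, the enzymes of estrogen synthesis, were GC transcripts in every set. Levels are means over cells of UMIs per 10000 UMIs of the cell. The level of *Cyp19a1* in GCs was 2.16 in set 1 (interval 2.11 to 2.22), 4.90 in set 2 (4.82 to 4.99) and 0.0839 in set 3 (0.0741 to 0.0946). In all cells outside the GC gate it was 0.0782, 0.317 and 0.00327, so that GCs were higher 27.7-fold (22.4 to 34.5), 15.5-fold (14 to 17.1) and 25.7-fold (14.8 to 48.7). With a stricter gate the ratio was 24 in set 2 and 41.7 in set 3. Between 94.8% and 95.9% of all *Cyp19a1* UMIs of a set lay in gated GCs. Set 3 was low and set 2 high, and GCs were above the other cells in each.

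The level of *Hsd17b1* in GCs was 8.21 in set 1 (8.09 to 8.33), 5.59 in set 2 (5.5 to 5.68) and 1.08 in set 3 (1.05 to 1.12). Outside the gate it was 0.352, 0.385 and 0.126. GCs were higher 23.3-fold (21.5 to 25.3), 14.5-fold (13.3 to 15.8) and 8.59-fold (7.7 to 9.62), the last 18.2-fold with a stricter gate. The order of the sets thus differed from that of *Cyp19a1*, with set 1 highest.

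Among the gated classes *Nr5a2* was highest in GCs, although in set 3 the interval of the luteal gate included the GC level. Its level in GCs was 9.01 in set 1 (8.89 to 9.13), 9.52 in set 2 (9.4 to 9.64) and 2.52 in set 3 (2.46 to 2.58), against 0.693, 0.871 and 0.373 in the other cells. GCs were higher 13-fold (12.3 to 13.7), 10.9-fold (10.4 to 11.5) and 6.75-fold (6.29 to 7.26). With a stricter gate the ratio was 19.7 in set 1 and 11.6 in set 3, and with cells assigned by cluster 11.9 in set 3. The luteal gate stood next, with 3.17 (2.92 to 3.44), 3.31 (3.04 to 3.61) and 2.27 (1.92 to 2.68), while theca cells had 0.485, 0.979 and 0.141. Clusters left the order less clear for set 3. Its cluster led by luteal cells, of 64 cells, had *Nr5a2* at 4.28. That is above the gated GC level of 2.52 and below the highest GC cluster, at 5.12. For sets 1 and 2 the highest clusters not led by GCs reached 3.4 and 4.46, below the GC level. The luteal gate is named for 3 markers, *Sfrp4*, *Ptgfr* and *Akr1c18*. Whether its cells belong to a corpus luteum was not tested.

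*Nr5a1* was present in GCs but highest in theca cells, the androgen producers. Its theca level was 1.71 in set 1 (1.63 to 1.79), 0.671 in set 2 (0.586 to 0.765) and 0.62 in set 3 (0.537 to 0.714). In GCs it was 0.448 (0.421 to 0.476), 0.286 (0.265 to 0.309) and 0.317 (0.297 to 0.338). Theca cells were higher than GCs 3.82-fold (3.53 to 4.13), 2.34-fold (2.01 to 2.73) and 1.96-fold (1.67 to 2.28). The luteal gate had 0.284 (0.134 to 0.526), 0.264 (0.102 to 0.557) and 0.497 (0.355 to 0.677), in set 3 with an interval that overlaps that of theca cells. Against all cells outside the GC gate the GC level was 0.862-fold in set 1 and 1.36-fold in both set 2 and set 3, so its direction differed between sets. Reads of *Nr5a1* and *Nr5a1os* cannot be told apart if the counting did not use strand, and the strand setting is not given in the sources used here.

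*Nr0b1*, the repressor, was sparse. Its GC level was 0.268 in set 1 (0.245 to 0.292), 0.0699 in set 2 (0.0582 to 0.0833) and 0.0213 in set 3 (0.0163 to 0.0274), resting on 714, 210 and 71 UMIs. The other cells had 0.0472, 0.0223 and 0.00572. GCs were higher 5.67-fold (4.55 to 7.13), 3.14-fold (2.19 to 4.58) and 3.73-fold (2.17 to 6.73). With cells assigned by cluster instead of one by one, these ratios were 11.3, 5.19 and 21, and with a stricter gate 9.86, 3.08 and 20.

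In each set 4 of the 5 genes were at least 2-fold higher in GCs than in the other cells, all but *Nr5a1*. Of all genes with at least 50 UMIs in both groups together, 9.67% passed this in set 1, 9.36% in set 2 and 11.6% in set 3.

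**Figure D1:**
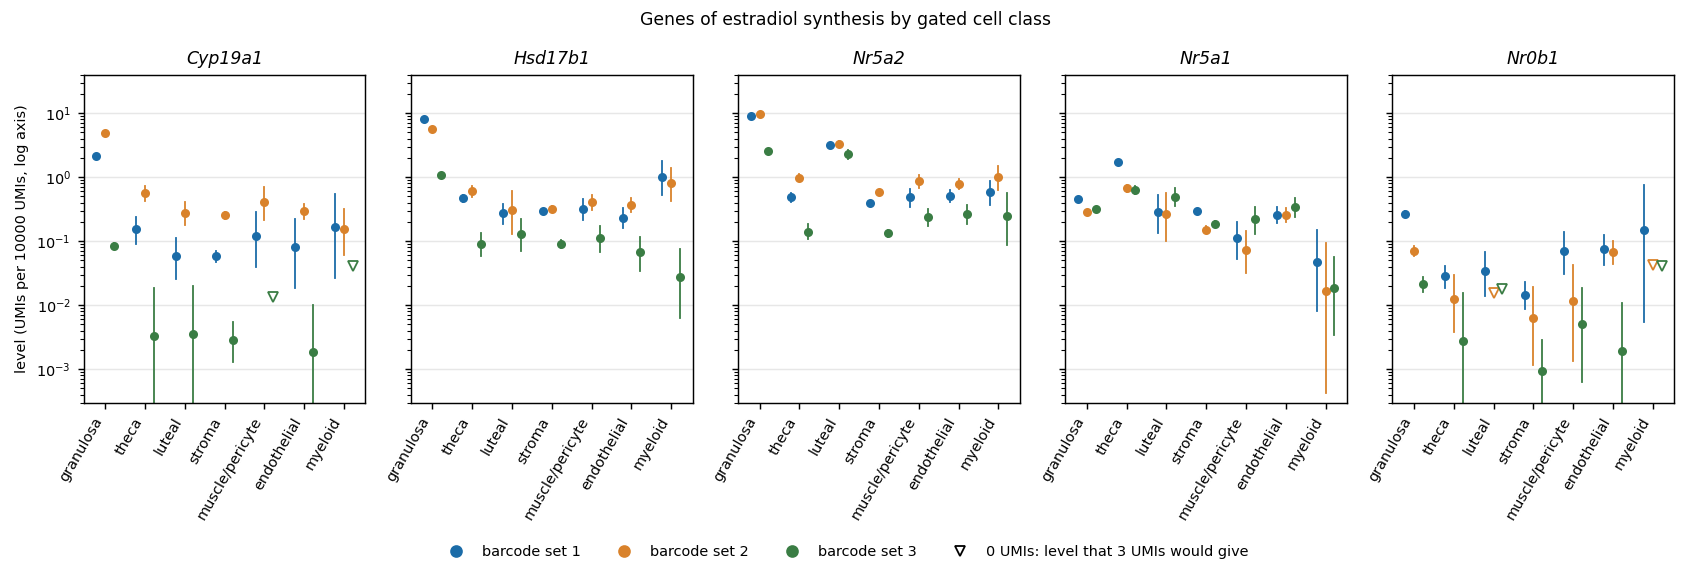
Level of each gene (UMIs per 10000 UMIs, log axis) in 7 gated cell classes, one point per barcode set with its 95% counting interval; intervals that reach below the axis are cut at its lower end, and open triangles mark 0 UMIs, drawn at the level that 3 UMIs would give. *Cyp19a1*, *Hsd17b1* and *Nr5a2* are highest in GCs in every set and *Nr5a1* in theca cells, except that in set 3 the luteal intervals overlap those of GCs for *Nr5a2* and of theca cells for *Nr5a1*.

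Droplets also pick up free RNA, so the classes that should lack these genes were read as background. In endothelial cells *Cyp19a1* was at 3.7%, 5.99% and 2.19% of the GC level in sets 1, 2 and 3, beside 3.16%, 4.54% and 4.29% for *Inha* and 1.81%, 4.06% and 5.44% for *Inhba*, which encode inhibin subunits of GCs. *Hsd17b1* was at 2.82%, 6.63% and 6.13% there and *Nr5a2* at 5.6%, 8.24% and 10.4%. Myeloid cells had *Hsd17b1* at 12.4%, 14.3% and 2.52% of the GC level, on 25, 31 and 4 UMIs, *Nr5a2* at 6.45%, 10.4% and 9.95%, and *Cyp19a1* at 7.64% and 3.13% in sets 1 and 2, on 4 and 11 UMIs, with no UMI in set 3. *Cyp19a1* in theca cells, at 7.05%, 11.6% and 3.95% of the GC level, stood beside 21.4%, 26.4% and 43.1% for *Inha* and 6.14%, 8.33% and 8.5% for *Inhba*. The set 3 values of *Cyp19a1* in endothelial and theca cells rest on 1 UMI each. The part of free RNA and of doublets in these levels was not tested.

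*Nr5a1* did not follow this pattern. Its level in endothelial cells was 58.1%, 90% and 109% of that in GCs, but in myeloid cells only 10.6%, 5.89% and 5.73%. *Nr0b1* in endothelial cells was at 28.3%, 98.2% and 9.15% of the GC level, resting on 25, 32 and 1 UMIs.

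Detection was compared after thinning each cell to 3000 UMIs, which left out 285, 249 and 241 GCs. A *Cyp19a1* UMI was found in 28.3% of GCs of set 1 (interval 27 to 29.7), 52.6% of set 2 (51.2 to 54.1) and 2.1% of set 3 (1.7 to 2.55). The same share in endothelial cells was 0.256% (0.00649 to 1.42) and 6.59% (4.73 to 8.9) in sets 1 and 2, and 0 of 342 cells in set 3, where the exact upper limit was 1.07%. Without thinning the GC shares were 36.5%, 62.9% and 4.56%, at median depths of 5991, 6744 and 6725 UMIs, and the endothelial shares 3.58%, 12.3% and 0.22%, at 5219, 5205.5 and 4811.5 UMIs. *Nr5a2* was found in 82.5%, 81.7% and 43.5% of thinned GCs, and *Hsd17b1* in 65.9%, 59.1% and 21.5%. For *Nr5a1* the thinned share was 39.4% in theca cells against 12.4% in GCs in set 1, 17% against 8.3% in set 2 and 14.2% against 9.01% in set 3.

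The GCs were divided by markers of 7 subtypes, none of them one of the 5 genes. Antral mural cells, which line the wall of large follicles, numbered 2176, 2091 and 209 in sets 1, 2 and 3, and preantral cells 234, 272 and 469. The Nts type held 37, 97 and 1510 cells. Its 37 cells of set 1 had no UMI of *Nts* or *Npy* and entered on *Zpld1*, at 25.5, so that the name goes against its own markers there and no comparison of the type is made in set 1. Over all subtypes of at least 50 cells, 38 of 95 combinations of a gene, a subtype and a set had levels at least 2-fold apart from those of the other GCs of the set. Of these, 3 had 0 UMIs in a group, at which depth a 2-fold difference is not shown, 7 rested on 1 to 4 UMIs and 28 on 5 or more. Over all genes, counted in the same way, the share was 10.3%, 11.6% and 12.7% for antral mural cells of sets 1, 2 and 3, 20%, 29.2% and 19.9% for preantral, 13.2%, 15.8% and 8.94% for mitotic and 13.9%, 18.6% and 19.4% for atretic cells. It was 29.4%, 26.9% and 28.8% for the Tnfsf11 type, and for sets 2 and 3 it was 20.1% and 20.2% for expanding cumulus cells and 28.1% and 12.8% for the Nts type.

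Of the 5 genes, *Cyp19a1* differed most between the antral mural and preantral gates. Its level in antral mural cells was 3.43 in set 1 (3.33 to 3.54), 6.85 in set 2 (6.7 to 7) and 0.454 in set 3 (0.345 to 0.586). In preantral cells it was 0.0317 (0.0112 to 0.0708), 0.208 (0.156 to 0.272) and 0.0224 (0.00874 to 0.047). Antral mural cells were higher 108-fold (48.5 to 308), 32.9-fold (25.2 to 43.8) and 20.3-fold (9.08 to 54.1), with 8, 67 and 8 preantral UMIs behind these ratios. Endothelial cells, read above as background, had 0.0801, 0.294 and 0.00183, the last on 1 UMI. In sets 1 and 2 the preantral level was thus not above background. The antral mural markers include *Inhba*, the gene most like *Cyp19a1* in the correlations below. *Inhba* was at 49.5, 49.8 and 15.3 in antral mural cells and at 0.764, 1.18 and 0.14 in preantral cells. The antral mural gate may thus favour cells high in *Cyp19a1*, which was not tested.

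*Hsd17b1* followed with a smaller contrast. Antral mural cells had 12.5, 7.55 and 2.93 and preantral cells 1.68, 1.39 and 1.04, a difference of 7.46-fold (6.6 to 8.47), 5.42-fold (4.82 to 6.11) and 2.81-fold (2.38 to 3.31). For *Nr5a2* the antral mural level was 10.5, 12.3 and 3.76 and the preantral level 4.32, 4.16 and 3.19, a ratio of 2.44, 2.96 and 1.18. *Nr5a1* was at 0.51, 0.302 and 0.358 in antral mural cells and at 0.399, 0.337 and 0.322 in preantral cells, and the interval of the ratio included 1 in each set. *Nr0b1* was 3.02-fold higher in antral mural cells in set 1 (1.73 to 5.76), and 0.673-fold (0.338 to 1.39) and 0.72-fold (0.196 to 2.05) in sets 2 and 3.

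Of the 5 genes, 4, 3 and 2 were at least 2-fold higher in antral mural than in preantral cells in sets 1, 2 and 3. The share of all genes was 12.3%, 11.7% and 6.30%.

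Atretic cells, of follicles that degenerate, had less *Cyp19a1* and more *Nr0b1* than the other GCs. Of the 1919 atretic cells, 585 entered with GC marker levels below the class cut-off. Those markers include *Inhba* and *Inhbb*, the genes most like *Cyp19a1* and *Hsd17b1* in the correlations below. The gate may thus favour cells low in the enzymes, which was not tested. In atretic cells *Cyp19a1* was at 0.093 in set 1 (0.0697 to 0.122), 0.959 in set 2 (0.862 to 1.06) and 0.0207 in set 3 (0.00377 to 0.0638), the last resting on 3 UMIs. Endothelial cells of set 1 had 0.0801 (0.0185 to 0.222), so the atretic level of that set could not be told from background. Atretic *Cyp19a1* was lower than in the other GCs by a factor of 28.7 (21.9 to 38.4), 5.93 (5.33 to 6.61) and 4.22 (1.35 to 23.3). *Hsd17b1* was lower by a factor of 7.37, 6.51 and 1.21. *Nr0b1* was higher than in the other GCs, 2.05-fold (1.71 to 2.46), 3.53-fold (2.44 to 5.08) and 4.92-fold (2.35 to 9.45), at 0.455, 0.174 and 0.0872 on 246, 88 and 13 UMIs. *Nr5a2* was nearly kept in set 1, at 7.63 or 0.816-fold, was 0.447-fold in set 2 and was higher in set 3, at 4.56 or 1.89-fold. By cluster, the highest *Nr5a2* level among GC clusters was 12.7 in set 1 and 5.12 in set 3, each in a cluster led by atretic cells. In set 2 it was 14.3, in a cluster led by antral mural cells.

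In set 1, 3 of the 5 genes differed at least 2-fold between atretic cells and the other GCs, where 13.9% of all genes did. In set 2 these were 4 genes beside 18.6% and in set 3 it was 2 beside 19.4%.

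In mitotic cells the enzymes were close to the other GCs in sets 1 and 2 and higher in set 3. *Cyp19a1* was 0.986-fold, 1.06-fold and 1.58-fold (1.2 to 2.07 in set 3) the level of the other GCs, and *Hsd17b1* 1.04-fold, 0.966-fold and 1.69-fold (1.56 to 1.82 in set 3). Cells of the Tnfsf11 type had the highest *Cyp19a1* level of any subtype in sets 1 and 2, 6.53 (5.65 to 7.51) in 54 cells and 8.67 (8.11 to 9.27) in 170 cells. The 72 cells so gated in set 3 had *Tnfsf11* at 0.358, against 7.6 and 7.67 in sets 1 and 2, and were carried by *Comp*, at 9.25, so they are not compared with those sets; they had no *Cyp19a1* UMI, and 3 UMIs would give 0.0786. In the Nts type *Cyp19a1* was at 7.2 in 97 cells of set 2 and at 0.0733 in 1510 cells of set 3. Cells gated as expanding cumulus, a name for cells that surround the oocyte, had 5.26 in set 2 and 0.0778 in set 3.

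**Figure D2:**
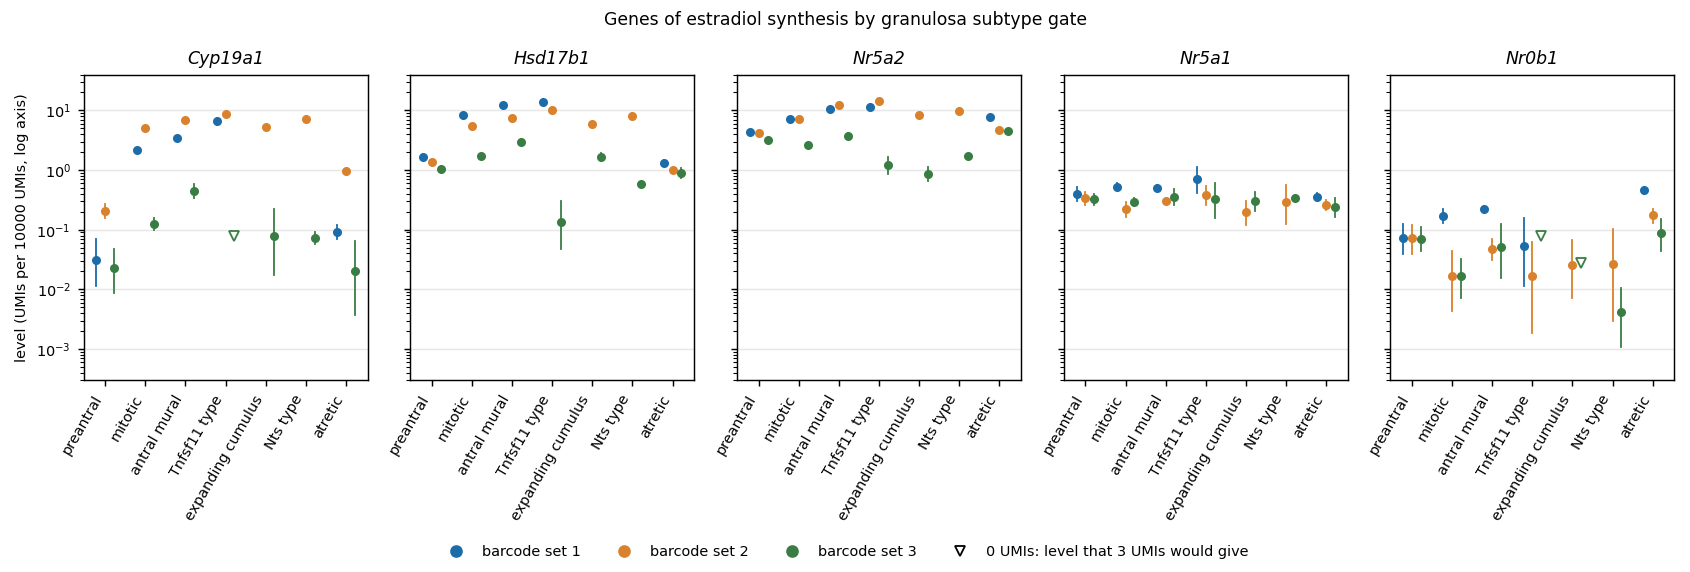
Level of each gene (UMIs per 10000 UMIs, log axis) in 7 GC subtypes, one point per barcode set with its 95% counting interval, for subtypes of at least 50 cells; open triangles mark 0 UMIs, and the Tnfsf11 type of set 3 lacks most of its naming marker. In sets 1 and 2 *Cyp19a1* is lowest in preantral cells, at 0.0317 and 0.208, *Nr5a1* spans a narrow range in every set, and *Nr0b1* is highest in atretic cells in all 3 sets, in set 3 with an interval that overlaps those of preantral and antral mural cells.

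The spread over single cells was wide. In antral mural cells the median *Cyp19a1* level was 1.55 in set 1 and 5.58 in set 2, with 90th percentiles of 10.2 and 15.5, and the top decile of cells held 50.5% and 35.2% of the UMIs. The median was 0 in set 3, where the top decile held 93.8%. *Nr5a2* was more even, with medians of 9.39, 11.5 and 2.56 and 34.1%, 25.4% and 37.5% of the UMIs in the top decile. Over unsupervised clusters in which GCs were the most frequent gated class, 10, 11 and 8 in the 3 sets, *Cyp19a1* ran from 0.0572 to 6.81 in set 1, from 0.178 to 9.59 in set 2 and from 0 to 0.156 in set 3. The highest cluster was led by antral mural cells in sets 1 and 2 and by the Nts type in set 3.

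The sets were then compared within GCs. *Cyp19a1* was 2.26-fold higher in set 2 than in set 1 (2.19 to 2.34), and set 3 was lower than set 1 by a factor of 25.8 (22.8 to 29.3) and lower than set 2 by a factor of 58.4 (51.8 to 66.2). *Hsd17b1* was 0.68-fold in set 2 over set 1 (0.666 to 0.695), so the 2 enzymes went in opposite directions between these sets. In set 3 *Hsd17b1* was lower than in set 1 by a factor of 7.58 (7.3 to 7.87) and than in set 2 by 5.15 (4.96 to 5.36).

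*Nr5a2* differed by a factor of 1.06 (1.04 to 1.08) between sets 2 and 1, and was lower in set 3 by 3.57 (3.48 to 3.67) and 3.78 (3.68 to 3.88). *Nr5a1* stayed within 2-fold in every pair, at 0.639 (0.579 to 0.705), 0.709 (0.649 to 0.774) and 1.11 (1 to 1.23) for set 2 over 1, 3 over 1 and 3 over 2. *Nr0b1* was lower in set 2 than in set 1 by 3.83 (3.14 to 4.69) and in set 3 by 12.5 (9.6 to 16.6).

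Past 2-fold were 2 of the 5 genes between sets 2 and 1, 4 between sets 3 and 1 and 4 between sets 3 and 2. Of all genes, 25.6%, 23.5% and 27.6% were past it in these pairs. The 3 pairs share their sets, and each set is 1 library, so a difference between sets cannot be told apart from a difference between libraries.

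Because the subtypes made up different shares of each set, the comparison was repeated within them. Gated cells of 1 name were not alike in all sets. The 209 antral mural cells of set 3 had *Nppc* at 0.917, against 8.39 and 4.39 in sets 1 and 2, and *Inhba* at 15.3, against 49.5 and 49.8. Antral mural cells led 4 clusters of set 1 and 6 of set 2, and no cluster of set 3. The Nts type led 3 clusters of set 3 and none of set 2, and its *Inhba* level was 49.2 in set 2 and 1.84 in set 3. Expanding cumulus cells of sets 2 and 3 had *Ptx3* at 5.37 and 21.6, *Ptgs2* at 5.56 and 1.18 and *Inhba* at 40.1 and 6.41. In antral mural cells *Cyp19a1* in set 3 was lower than in set 1 by a factor of 7.57 (5.85 to 9.97) and than in set 2 by 15.1 (11.7 to 19.9). In mitotic cells the factors were 17.2 (13.5 to 22.2) and 41.6 (33 to 53.2). Set 3 was lower than set 2 by 98.2 (75 to 130) in the Nts type, by 67.6 (23.7 to 308) in expanding cumulus cells, on 5 UMIs in set 3, and by 9.3 (4.14 to 24.9) in preantral cells. Against set 2 the factor thus ran to both sides of the 58.4 over all GCs. Against set 1 it was also 4.49 (1.38 to 25.4) in atretic cells, on 3 UMIs in set 3, and 1.42 (0.375 to 5.13) in preantral cells, on 8 UMIs in each set, and in cells of no subtype it was 21.4 (16.4 to 28.4), so that each of these lay below the 25.8 over all GCs.

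*Cyp19a1* was higher in set 2 than in set 1 in each subtype compared. The ratio was 1.33 in the Tnfsf11 type (1.14 to 1.56), 2 in antral mural cells (1.92 to 2.07), 2.42 in mitotic cells (2.17 to 2.69) and 3.06 in cells of no subtype (2.74 to 3.41). It was 6.56 in preantral cells (2.76 to 19.4), on 67 and 8 UMIs, and 10.3 in atretic cells (7.71 to 14). Endothelial cells, read as background, were also higher in set 2, at 0.0801 in set 1 and 0.294 in set 2. The preantral levels of these sets lay below them, and the atretic interval of set 1 included the endothelial level. The part of free RNA in these ratios was not tested.

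In antral mural cells of set 3 *Hsd17b1* was lower than in sets 1 and 2 by 4.27 (3.82 to 4.8) and 2.58 (2.3 to 2.9), and *Nr5a2* by 2.79 (2.53 to 3.1) and 3.28 (2.97 to 3.63). In preantral cells *Nr5a2* was lower by 1.35 (1.22 to 1.5) and 1.31 (1.18 to 1.44), and *Hsd17b1* by 1.61 (1.35 to 1.91) and 1.34 (1.13 to 1.58). In atretic cells *Nr5a2* was lower by 1.67 (1.53 to 1.82) and 1.03 (0.937 to 1.12), and *Hsd17b1* by 1.49 (1.22 to 1.83) and 1.11 (0.898 to 1.37). The factors of antral mural, preantral and atretic cells were thus smaller than over all GCs. Between sets 2 and 3 the Nts type differed by more than all GCs, with *Hsd17b1* at 8.1 and 0.574 and *Nr5a2* at 9.94 and 1.73. Expanding cumulus cells differed by more for *Nr5a2*, at 8.33 and 0.87, and by less for *Hsd17b1*, at 5.84 and 1.64. The difference between subtypes was not tested.

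For *Nr0b1* the factor of set 3 against set 1 was below the 12.5 over all GCs in antral mural, atretic, mitotic and preantral cells. It was larger in cells of no subtype, at 0.299 in set 1, on 104 UMIs, and 0.013 in set 3, on 18 UMIs. The factor of set 2 against set 1 lay on both sides of 3.83. In antral mural cells *Nr0b1* was lower than in set 1 by 4.58 (3.03 to 7.21) in set 2 and 4.34 (1.76 to 14.6) in set 3, on 5 UMIs there. In atretic cells the factors were 2.62 (1.94 to 3.57) and 5.22 (2.9 to 10.4), and in mitotic cells 9.98 (3.61 to 39.8) and 10.2 (4.91 to 24.4), on 4 and 9 UMIs. In preantral cells they were 1.02 (0.443 to 2.34) and 1.03 (0.472 to 2.19), with levels of 0.0734, 0.0719 and 0.071 in the 3 sets.

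In theca cells *Nr5a1* was lower in set 2 than in set 1 by 2.55 (2.21 to 2.94) and in set 3 by 2.75 (2.37 to 3.21). The theca gate held 869, 411 and 303 cells in sets 1, 2 and 3, and these were not alike. *Cyp17a1* was at 55.8, 56.6 and 27 and *Insl3* at 1.36, 0.466 and 0.256, while *Mgarp* was at 9.04, 7.7 and 10.1. The part of a differing make-up of the gate in the *Nr5a1* ratios was not tested.

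Whether the mRNAs lay in the same cells was read from thinned GCs. *Cyp19a1* and *Hsd17b1* were found together in 26.8% of GCs of set 1 (25.4 to 28.1), where the product of the single shares was 18.7%. In set 2 they were together in 39.7% (38.3 to 41.2) against 31.1%, and in set 3 in 0.72% (0.496 to 1.01) against 0.451%. Thinned to 5000 UMIs, set 3 had 1.1% (0.784 to 1.49) against 0.964%, so that the interval included the product. With no thinning it had 2.41% (1.99 to 2.88) against 1.76%. Within antral mural cells the observed share was closer to the product, 43% against 38.8% in set 1 and 56.3% against 51.5% in set 2.

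Among GCs of set 1 with a *Cyp19a1* UMI, 94.4% (93 to 95.7) also had *Hsd17b1*, against 54.6% (52.8 to 56.4) of those without. For *Nr5a2* the shares were 91.5% and 79%. *Nr0b1* had the reverse order, with 1.5% (0.889 to 2.35) of the cells with *Cyp19a1* and 8.18% (7.23 to 9.21) of those without. In antral mural cells of set 1 the shares were 1.64% (0.923 to 2.7) and 8.14% (6.61 to 9.89). In those of set 2 they were 0.563% (0.244 to 1.11) and 1.74% (0.837 to 3.18), with intervals that overlap, and in set 3 only 15 such cells had *Cyp19a1*, none of them with *Nr0b1*. Over all GCs of set 2 the *Nr0b1* shares were 0.895% (0.555 to 1.37) and 2.46% (1.85 to 3.22). In set 3 they were 0 of 96 cells, which allows up to 3.77%, and 0.624%. For *Nr5a1* the shares were 16.5% (14.4 to 18.7) and 10.8% (9.76 to 12) in GCs of set 1. They were 8.1% and 8.53% in set 2. In set 3 they were 18.8% (11.5 to 28) and 8.81%, and thinned to 5000 UMIs both were 14.8%.

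**Figure D3:**
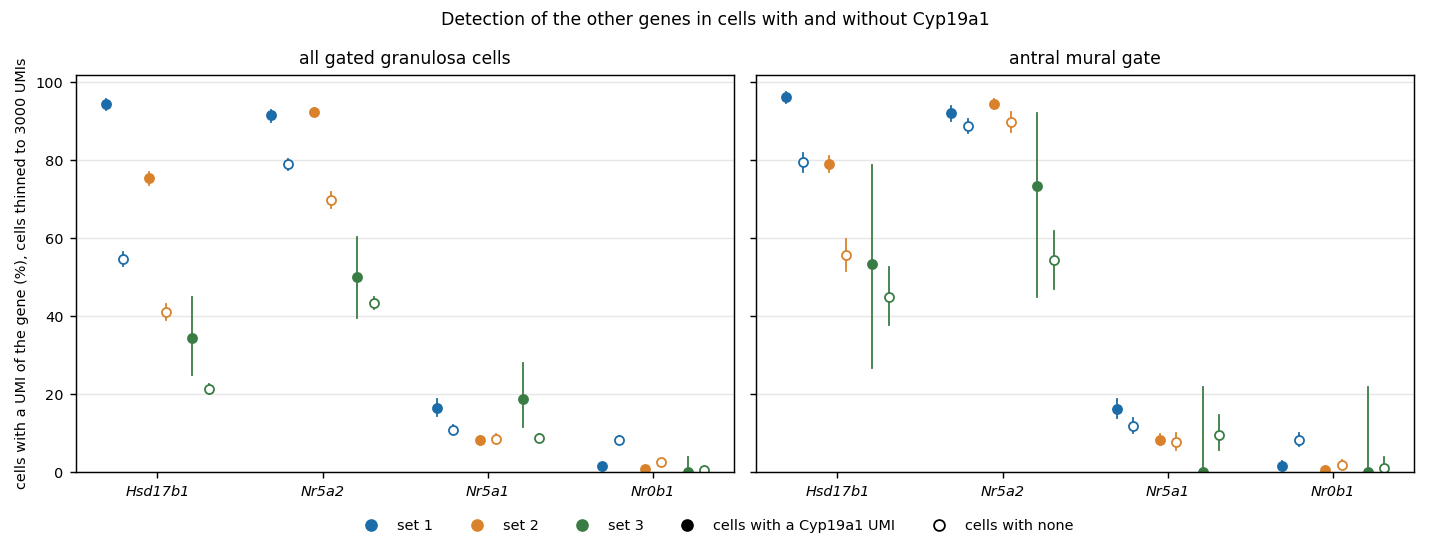
Share of cells (%) with a UMI of the gene on the x axis, among cells with a *Cyp19a1* UMI (filled) and without one (open), after thinning to 3000 UMIs, per barcode set with exact 95% intervals, for all GCs (left) and the antral mural gate (right). *Hsd17b1* is found more often in cells with *Cyp19a1* in sets 1 and 2, at 94.4% against 54.6% in GCs of set 1, and *Nr0b1* less often in GCs of sets 1 and 2, at 1.5% against 8.18% in set 1.

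The 5 genes were set in their pathway with a list of 50 genes, of which 48 were in the table. At a level of at least 0.5 in either set, 30 could be counted between sets 2 and 1, where 10 were at least 2-fold higher and 5 lower, beside 7.61% and 7.42% of all genes. Between sets 3 and 1, 11 were higher and 7 lower of 29, beside 8.69% and 9.26%, and between sets 3 and 2, 5 were higher and 10 lower of 30, beside 13.9% and 8.64%. The median log2 ratio over the counted list was -0.11, -0.30 and -0.39 in these pairs and that over all counted genes -0.26, -0.01 and 0.22.

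Other steps of steroid metabolism differed in the order of the sets. *Star*, which brings cholesterol to the inner mitochondrial membrane, was at 0.108, 4.51 and 7.76 in GCs of sets 1, 2 and 3. *Cyp11a1*, which makes pregnenolone, was at 4.66, 4.99 and 9.52, and *Scarb1*, a receptor for cholesterol-carrying lipoprotein, at 0.696, 3.06 and 2.05. *Hsd3b1*, which makes progesterone from pregnenolone, was at 28.5, 22.4 and 11.2, in the same order as *Hsd17b1*. *Sult1e1*, which inactivates estrogen by sulfation, had 1 UMI in GCs of set 1 and levels of 1.32 in set 2 and 20.3 in set 3, a 15.4-fold difference between the last 2 (14.9 to 16). *Hsd17b11*, an oxidative member of the dehydrogenase family, was at 0.419, 0.309 and 1.35, and *Hsd17b7* at 0.393, 0.32 and 0.41. *Cyp17a1*, the androgen-forming enzyme and a theca marker, was at 0.441, 0.427 and 0.0974 in GCs against 55.8, 56.6 and 27 in theca cells. The theca gate takes only cells with *Cyp17a1* at a level of at least 5, so the high theca level follows from the gate.

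Electron donors of the steroidogenic enzymes were highest in different sets. Ferredoxin *Fdx1* was at 3.01, 42 and 9.97, its reductase *Fdxr* at 0.99, 0.534 and 1.99, and *Por*, which passes electrons to aromatase, at 0.292, 0.86 and 0.608. Set 2 was thus highest for *Fdx1* and *Por*, and set 3 for *Fdxr*.

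Of the hormone receptors, *Fshr*, *Lhcgr*, *Esr2* and *Esr1* were lowest in set 3. *Fshr* was at 1, 0.633 and 0.325 and *Lhcgr* at 1.29, 0.792 and 0.292. *Esr2*, the estrogen receptor of GCs, was at 1.18, 0.557 and 0.391 and *Esr1* at 0.0875, 0.0478 and 0.0326. *Gper1*, a membrane receptor for estrogen, had 38, 4 and 14 UMIs in the GCs of sets 1, 2 and 3. *Pgr*, the progesterone receptor, was highest in set 2, at 0.0175, 0.91 and 0.126.

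Of the partners and opponents of NR5A receptors, 12 were in the table and at most 5 reached a level of 0.5 in a pair. Of those counted, the orphan receptors *Nr4a1* and *Nr4a2* were past 2-fold; genes below that level, which may differ by more, were not counted. They were at 1, 5.74 and 0.677 and at 0.125, 1.66 and 0.105. Of the other transcription factors on the list, *Foxl2* was at 2.71, 0.972 and 0.986 and *Foxo1* at 7.01, 1.99 and 2.11, both highest in set 1. *Crem*, a gene of the cAMP response, was at 0.155, 4.2 and 0.297, *Cebpb* at 3.1, 16.6 and 7.05 and the AP-1 gene *Fosl2* at 2.8, 4.85 and 1.44, all highest in set 2. *Runx2* was at 0.137, 0.195 and 2.75.

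**Figure D4:**
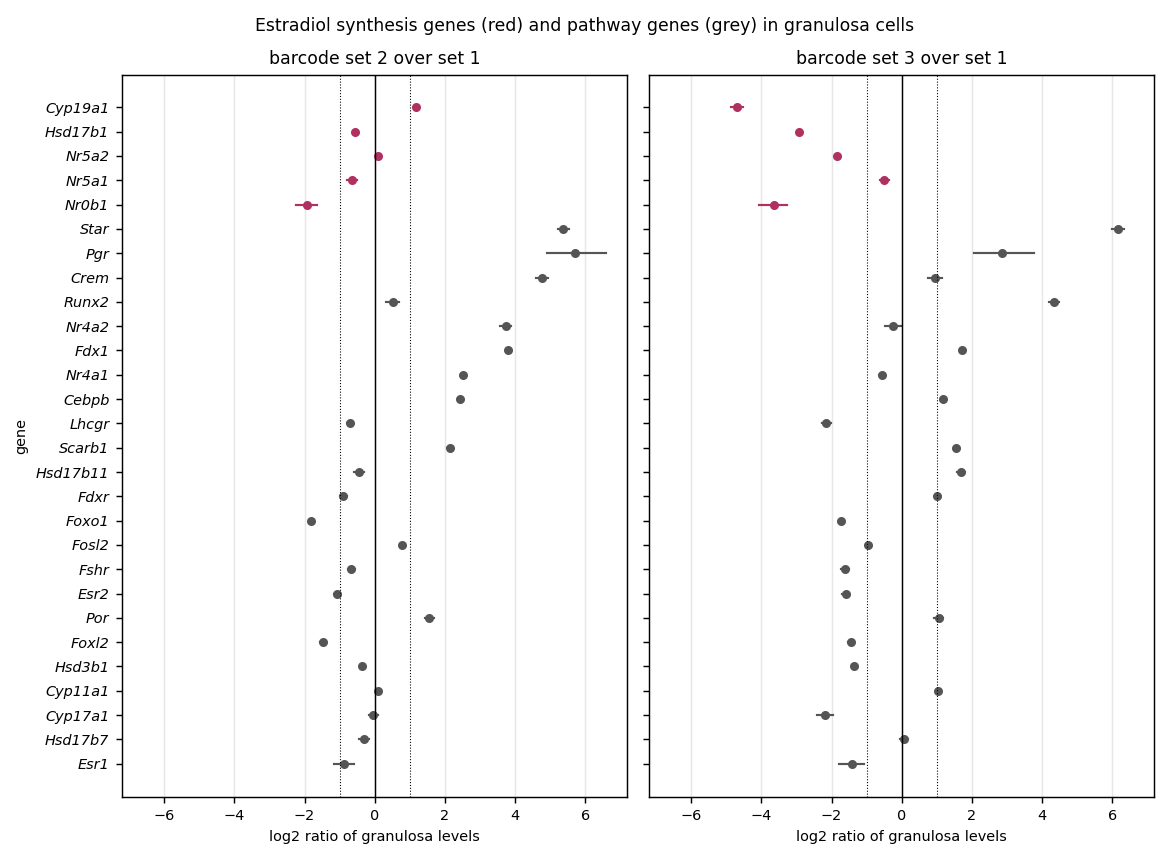
Log2 ratio of the GC level in set 2 over set 1 (left) and set 3 over set 1 (right) for the 5 genes (red) and the named pathway genes (grey), with 95% counting intervals; dotted lines mark 2-fold, and *Sult1e1*, with 1 UMI in set 1, is not drawn. The enzymes lie on opposite sides of 0 on the left, at 2.26-fold and 0.68-fold, and all 5 genes lie below 0 on the right.

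Patterns most like those of the 5 genes were sought over 40 combinations of a class or subtype and a set, which share libraries, as a description over 7143 other genes. For *Cyp19a1* the 5 highest Pearson correlations of log2 level were with *Inhba* (0.936), *Nap1l5* (0.923), *Ccng2* (0.903), *Inhbb* (0.902) and *Slc16a1* (0.882), of which *Inhba* and *Inhbb* are gate markers. *Hsd17b1* was most like the gate marker *Inhbb* (0.941), then *St3gal4* (0.926), *Herc3* (0.923), *Plxnc1* (0.919) and *Alms1* (0.918). *Nr5a2* was most like *Cyb5a* (0.943), which encodes cytochrome b5, then *Tnni3* (0.921), *Mctp1* and *Bmpr1b* (both 0.914) and *Kif21a* (0.907). *Nr5a1* was most like *Nmt2* (0.832), *Hadha* and *Tcaf1* (both 0.823), *Pank3* (0.798) and *Elovl6* (0.797), and *Nr0b1* like *R3hdm1* (0.87), *Gm10138* (0.827), *Prkag2* (0.812), *Zfp950* (0.804) and *Ivns1abp* (0.801). Among the 5 genes, *Cyp19a1* and *Hsd17b1* had 0.86, *Hsd17b1* and *Nr5a2* 0.86 and *Cyp19a1* and *Nr5a2* 0.73, while *Cyp19a1* had 0.15 with *Nr5a1* and 0.24 with *Nr0b1*.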

How the data were processed

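Ovary libraries at 0, 1 and 6 h after hCG were measured by 10x scRNA-seq. The submitters' processing notes name Cell Ranger, Seurat and mm10; versions are not given in the sources used here. The authors deposited 1 table of natural log values, ln(1 + UMIs per 10000 UMIs of the cell). UMI counts were worked back from it and were whole for 100.0% of values (tolerance 0.01 UMI; largest deviation 1.32e-11).

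The 5 genes and all gene lists were chosen with earlier results of these data known. Cells were gated on mean scaled marker levels, each marker scaled to its 90th percentile; the cut-offs were set after marker levels had been seen, and 1176 GCs lay within 0.05 of the class cut-off. Theca cells also had to have *Cyp17a1* at a level of at least 5. Atretic markers alone brought 585 of the GCs into the gate. Named were the 5 genes, up to 20 pathway genes by largest fold at a level of at least 0.5, 10 fixed pathway genes and the 5 genes most alike each member by correlation of log2(level + 0.1). *Gper1* and the gate markers given beside results fall outside this rule and were chosen after their values were seen.

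A level is the mean over cells. Intervals are exact Poisson, or conditional binomial for ratios, at the 95% level; shares have Clopper-Pearson intervals. The design had set intervals on the summed UMIs. On simulated data (3356 genes, 2000 cells a group, drawn from set 1) those covered the true ratio for 88.4% of genes, because a mean over cells weights UMIs of shallow cells more. The effective count, the squared weighted sum over the sum of squared weights times UMIs, was therefore used in every interval, and covered 95.5%. This change was made after the files had been seen. UMIs of 1 library are not replicates, and no interval covers spread between animals.

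Louvain clusters (2000 variable genes, 30 components, 15 neighbours, resolution 1) and Scrublet were run per set. Clustering used python-igraph 0.11.9 and scikit-learn 1.9.0, and Scrublet was run through scanpy 1.11.5, under Python 3.11.15. Values came from scipy 1.17.1 with numpy 2.4.6, and plots from matplotlib 3.10.9.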

Additional observations from a re-analysis of the deposited data

Results flagged for a closer look

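1 gene had ratios on opposite sides of 1 in 2 cell groups under the same pair of sets, each with its whole interval past 1.5-fold. *Nr5a2* in theca cells was 2.02-fold in set 2 over set 1, and in atretic GCs it was 0.614-fold. The difference between the groups was not tested. The theca level was 5.39% of the GC level in set 1 and 10.3% in set 2, beside 5.6% and 8.24% in endothelial cells, which should lack the gene and were 1.56-fold (1.18 to 2.06) in set 2 over set 1. The stroma was at 4.39% and 6.22%. The part of free RNA in the theca ratio was not tested.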

How the results depend on the processing

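The counts of genes past 2-fold stayed within 1.5 times under summed UMIs over summed totals, totals without the 50 most abundant genes, cells under 2000 UMIs left out, assignment by cluster, a stricter gate, the highest doublet scores left out and, chosen after seeing the data, without the cells gated on atretic markers alone. With no minimum beyond 10 UMIs, which was run for the 4 counts of pathway genes only, they did so too. As differences in the mean of the deposited log values, a difference of ln 2 was passed by 1 gene in every set for GCs over other cells (2 in set 1 and 1 in set 3), by 0 between sets 2 and 1, by 2 between sets 3 and 1 and by 5 over the 3 pairs; that scale compresses folds of low genes. *Cyp19a1* with *Hsd17b1* was found in 35.6%, 50.4% and 1.1% of GCs thinned to 5000 UMIs and in 35.3%, 53.3% and 2.41% with no thinning. Of 210 single ratios under the alternatives on a ratio scale, 11 moved by over 1.5 times, all of them GCs over other cells under another gate, up to 5.63 times for *Nr0b1* in set 3; none of the ratios past 2-fold changed direction. No paired analysis was possible because each group has 1 library. Depth limits *Nr0b1* most, with 71 UMIs over all GCs of set 3.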
